A study of Mus musculus with 9 samples.

Results

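The genes described here are 40 mouse genes whose products build the mitotic spindle, attach chromosomes to it, hold the cell in metaphase until every chromosome is attached, and then split the cell. They were taken by name from the 18193 genes that the array annotation could name, and all 40 were measured. The list falls into 8 roles: 5 genes of the spindle assembly checkpoint, 3 of the step into anaphase, 6 mitotic kinases and their partners, 4 of the chromosomal passenger complex, 6 of the centromere and kinetochore, 6 kinesin motors, 4 of cytokinesis and 6 of chromosome structure. The choice used no measured value of these samples, but it was made with earlier results of these data in view.

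Arrays profiled so-called very small embryonic-like stem cells (VSEL), cells labelled haematopoietic stem cells (HSC) and the embryonic stem cell line ESC-D3 (ESC below), with 3 arrays each. VSEL were sorted from bone marrow as Sca-1+, lineage-negative, CD45- cells, and HSC as Sca-1+, lineage-negative, CD45+ cells, both from C57BL/6 mice aged 4 weeks. ESC-D3 is an established line of strain 129S2/SvPas, kept on 0.1% gelatin in medium with 10 ng/ml of leukaemia inhibitory factor (LIF), so strain and culture differ between ESC and the marrow cells and cannot be told apart from cell type. Each library was amplified from 20 sorted cells. Whether libraries of 1 cell type stem from different mice or cultures was not stated in the labels, so p-values cover the spread among these libraries alone, part of which may be technical. Values are log2 expression values of the deposited RMA table, where 1 unit is a factor of 2. In a pool of cells, fewer cells in mitosis and less RNA per cell cannot be told apart.

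Most of these genes are switched on late in the cell cycle, from G2 into mitosis, and are held down in resting and G1 cells. The DREAM complex and the MuvB complex with B-Myb and FoxM1 act on them through a short promoter element, the cell cycle genes homology region (CHR), and the factor NF-Y acts through the CCAAT box. At unattached kinetochores the checkpoint proteins assemble an inhibitor that binds Cdc20 and keeps the anaphase-promoting complex (APC/C) off. Once it is relieved, the APC/C marks securin and cyclin B for destruction, separase cuts cohesin and the sister chromatids part. Adult blood stem cells are known to be mostly quiescent, while mouse embryonic stem cells divide fast with a short G1.

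The promoters of 34 of the 40 genes were found in the RefSeq promoter table (assembly GRCm38.p6), as 37 windows of 250 bases before to 50 bases after a transcription start. No window was matched for Cdc25c, Tpx2, Aurkb, Incenp, Kif20a or Smc4. The letters TTTGAA of the CHR stood on either strand in 30 of the 37 windows (81.1%), against 17.9% of the 32851 windows of all genes and 13.4% of those of genes on the array. The CCAAT box stood in 29 windows (78.4%), against 37.4% of all windows. Both stood together in 27 windows (73.0%), against 7.0% of all. The CHR variant TTCGAA was found in 3 windows (8.1%), against 1.6% of all. Of other mitosis genes, described further down, 31.4% of 121 windows held TTTGAA, as did 14.3% of 35 windows of DNA replication genes. These are matches of letters in a window, not sites shown to be bound.

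The positions of the matches differed between both elements. Of 39 CHR matches, 28 began within 50 bases of the start, with a median at -15. Of 63 CCAAT matches, 45 began in the 120 bases before the start, with a median at -68. Matches of different elements overlapped once. Among the genes with a window that were called higher in VSEL than in HSC, 13 of 17 windows held the CHR (76.5%), and among those not called 17 of 20 did (85.0%). Counted by gene it was 13 of 17 and 14 of 17. Bub3, Prc1 and Ect2, all not called, have 2 overlapping windows each, and matches shared by both windows were counted in each. The 4 promoters below are those of Cenpf and Birc5, the called genes with a window that had the largest and the smallest difference between VSEL and HSC, and of Cdk1 and Plk1, kinases that drive entry into mitosis. Each is shown 5′ to 3′ on the gene's strand from 120 bases before to 30 bases after the start. Capitals mark TTTGAA, and CCAAT or its complement ATTGG.
Cenpf, chr1:189688057-189688206, minus strand: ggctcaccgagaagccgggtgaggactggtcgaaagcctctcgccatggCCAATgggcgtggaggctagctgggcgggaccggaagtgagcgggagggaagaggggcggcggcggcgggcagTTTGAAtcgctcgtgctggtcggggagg
Birc5, chr11:117849117-117849266, plus strand: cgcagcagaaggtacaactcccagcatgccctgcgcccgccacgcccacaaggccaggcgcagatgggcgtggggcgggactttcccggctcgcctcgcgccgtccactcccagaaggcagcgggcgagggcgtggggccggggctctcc
Cdk1, chr10:69352883-69353032, minus strand: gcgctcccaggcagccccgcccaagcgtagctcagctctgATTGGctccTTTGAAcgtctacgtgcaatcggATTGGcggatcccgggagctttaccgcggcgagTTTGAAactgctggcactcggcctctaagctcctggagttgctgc
Plk1, chr7:122159315-122159464, plus strand: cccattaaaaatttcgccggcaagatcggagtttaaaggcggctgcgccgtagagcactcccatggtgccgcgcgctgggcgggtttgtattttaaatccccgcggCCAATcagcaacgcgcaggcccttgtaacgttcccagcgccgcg
In Cenpf the CHR begins at position 3 and a CCAAT box at -71. Cdk1 carries a CHR at -71 and another at -15, with inverted CCAAT boxes at -80 and -48. Plk1 has a CCAAT box at -14, and its CHR begins at 31, just beyond the stretch shown. The Birc5 window held none of the 3 elements searched, and neither did those of Mad2l1, Nuf2, Ncaph and Nusap1.

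**Figure D1:**
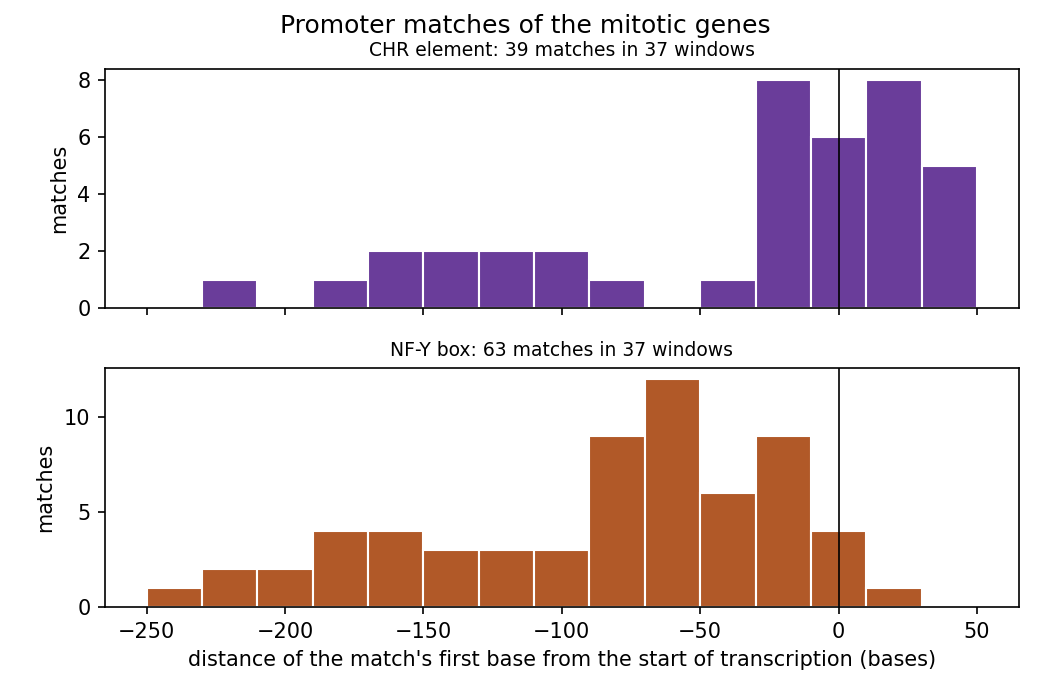
Histograms of where the CHR element (39 matches, top) and the NF-Y box, which is the CCAAT box (63 matches, bottom), began in the 37 promoter windows of the mitotic genes; the x axis is the distance in bases from the start of transcription (the black line) and the y axis the number of matches in bins of equal width. The CHR matches gather around the start, while the NF-Y boxes gather before it, with a median at -68. Matches shared by the overlapping windows of Bub3, Prc1 and Ect2 are counted in each window.

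VSEL arrays 2 and 3 correlated at r = 0.989 over probe sets and differed by more than 4-fold at 1 probe set, against 1565 to 4232 probe sets in the other pairs of a group. They were therefore averaged and counted as 1 library, VSEL 2+3, which leaves 2 VSEL, 3 HSC and 3 ESC libraries, 8 in all, behind each value. The sort labels were checked against marker genes. Ptprc, which encodes CD45, read 3.59 and 3.25 in VSEL and 13.40 to 13.68 in HSC, as the gates require, and ESC ranged from 2.94 to 3.17. In HSC the 13 measured HSC and progenitor markers had medians of only 6.32 to 7.09. Of 11 T and NK cell markers, 9 were called lower in VSEL than in HSC, where 9.18% of all genes were. The T and NK medians were 10.84 to 11.32 in HSC and 5.21 and 5.40 in VSEL. Both VSEL libraries held high erythroid markers (median 12.59 in VSEL 1 and 11.22 in VSEL 2+3, against 7.40 to 8.56 in HSC and 5.36 to 6.05 in ESC) and B lineage markers (10.66 and 9.29, against 7.22 to 8.08 and 5.03 to 5.52). Granulocyte and monocyte markers were high in both marrow populations (12.29 and 14.38 in VSEL, 13.27 to 13.74 in HSC) and low in ESC (4.78 to 4.91), with 10 of 13 called higher in VSEL than in ESC. Of the marrow lists, 7 of 12 erythroid and 4 of 12 B lineage genes were called higher in VSEL than in HSC and 0 lower. Of all genes, 8.01% were called higher and 9.18% lower. Pluripotency markers were called higher than in HSC for 13 of 15, with medians of 8.32 and 8.74 in VSEL. Their medians ran from 4.15 to 4.43 in HSC and from 10.84 to 11.61 in ESC. Pan-leukocyte markers split the VSEL libraries, with a median of 5.12 in VSEL 1 and 12.80 in VSEL 2+3. Their medians were 13.13 to 13.43 in HSC and 5.08 to 5.49 in ESC. By this list VSEL 2+3 thus stood near HSC, although its Ptprc was low. The part of these other cell types in the mitotic results was not tested.

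The mitotic genes stood lowest in HSC. The median of the 40 genes was 9.20 in VSEL 1 and 10.29 in VSEL 2+3, 7.74, 8.11 and 8.02 in the HSC libraries, and 10.63, 10.48 and 10.25 in the ESC libraries. No gene of the 40 lay below the lower quartile of all genes of its library (4.49 to 4.78) in VSEL or ESC, and 2 to 4 did in each HSC library, where a difference can understate the ratio.

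Against HSC, 20 of the 40 were called higher in VSEL (limma, Benjamini-Hochberg adjusted p under 0.05 over all genes) and 0 lower, where 8.01% of all genes were called higher and 9.18% lower. At an unadjusted p under 0.05 the count of lower genes was 0. All libraries of VSEL lay above all of HSC for 26 of the 40, where 37.8% of all genes did, and below for 1, where 17.3% did. The median difference of the 40 was 1.94, from -0.98 to 5.29, and that of all genes was 0.22. Bub1, Ube2c and Birc5 kept the call in each of 21 alternative settings. Ube2c and Birc5 have no other probe set, so the settings on probe sets could not change their differences. The count of 20 fell to 8 when only VSEL and HSC were fitted, to 10 with array weights, to 13 without HSC 2 and to 12 without HSC 3. With the median over all probe sets of a gene, dim ones included, 6 of the 20 calls ended: Cenpf (0.55, limma adjusted p = 0.56), Incenp (0.29, 0.597), Kif11 (1.89, 0.339), Tpx2 (0.88, 0.0775), Top2a (0.89, 0.0892) and Cdc20 (0.75, 0.0559). Bub1, Ttk, Cenpe, Spc25 and Nusap1 kept the call in that setting with differences of 2.67, 1.67, 1.70, 2.11 and 1.26.

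Against ESC, 2 genes were called higher in VSEL (6.38% of all genes), Kif11 and Mki67, and 5 lower (10.5% of all genes): Mad2l1, Aurka, Birc5, Ndc80 and Prc1. The shares of the 40 called either way were near those of all genes. The ranges lay wholly above ESC for 5 genes (33% of all genes) and wholly below for 14 (22.6%). The median difference of the 40 was -0.64, from -2.59 to 2.02, against 0.11 for all genes. All 40 were among the 9096 genes above the median level. Fitted alone, those 9096 had a median of -0.50, with 537 called higher and 1877 lower. Upper quartiles over all genes were 7.605 to 7.772 in VSEL arrays and 8.502 to 8.567 in ESC arrays. The part of this in the result was not tested. For the 40 the median difference was 0.12 after cyclic loess normalization, which also left their calls at 2 higher and 2 lower. Leaving out VSEL 2+3, ESC 1 or ESC 2 left 0 genes called higher, and leaving out HSC 3 or ESC 3 left 1. Without any single ESC library 2 were called lower, and without VSEL 1, 3. Aurka and Kif11 lost the call with the median over probe sets (-1.05 and -0.21), and Aurka, Birc5 and Prc1 lost it after cyclic loess (-1.67, 0.03 and -1.52).

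HSC against ESC gave 25 of 40 genes lower (9.93% of all genes) and 0 higher (6.99%). The unadjusted count of higher genes was 0. HSC lay wholly below ESC for 34 genes (21.5% of all genes) and wholly above for 1, Smc4 (16.5% of all genes). The other bright probe sets of Smc4 gave -2.3 and -0.34 for HSC minus ESC, against 0.82 here. The median difference of the 40 was -2.45, from -5.27 to 0.82, against -0.04 for all genes. The median over probe sets ended 5 of the 25 calls: Bub3 (-0.47), Incenp (-0.55), Cenpf (-1.09), Kif11 (-2.10) and Top2a (-0.03). The comparisons share libraries, so their calls are not independent of each other.

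**Figure D2:**
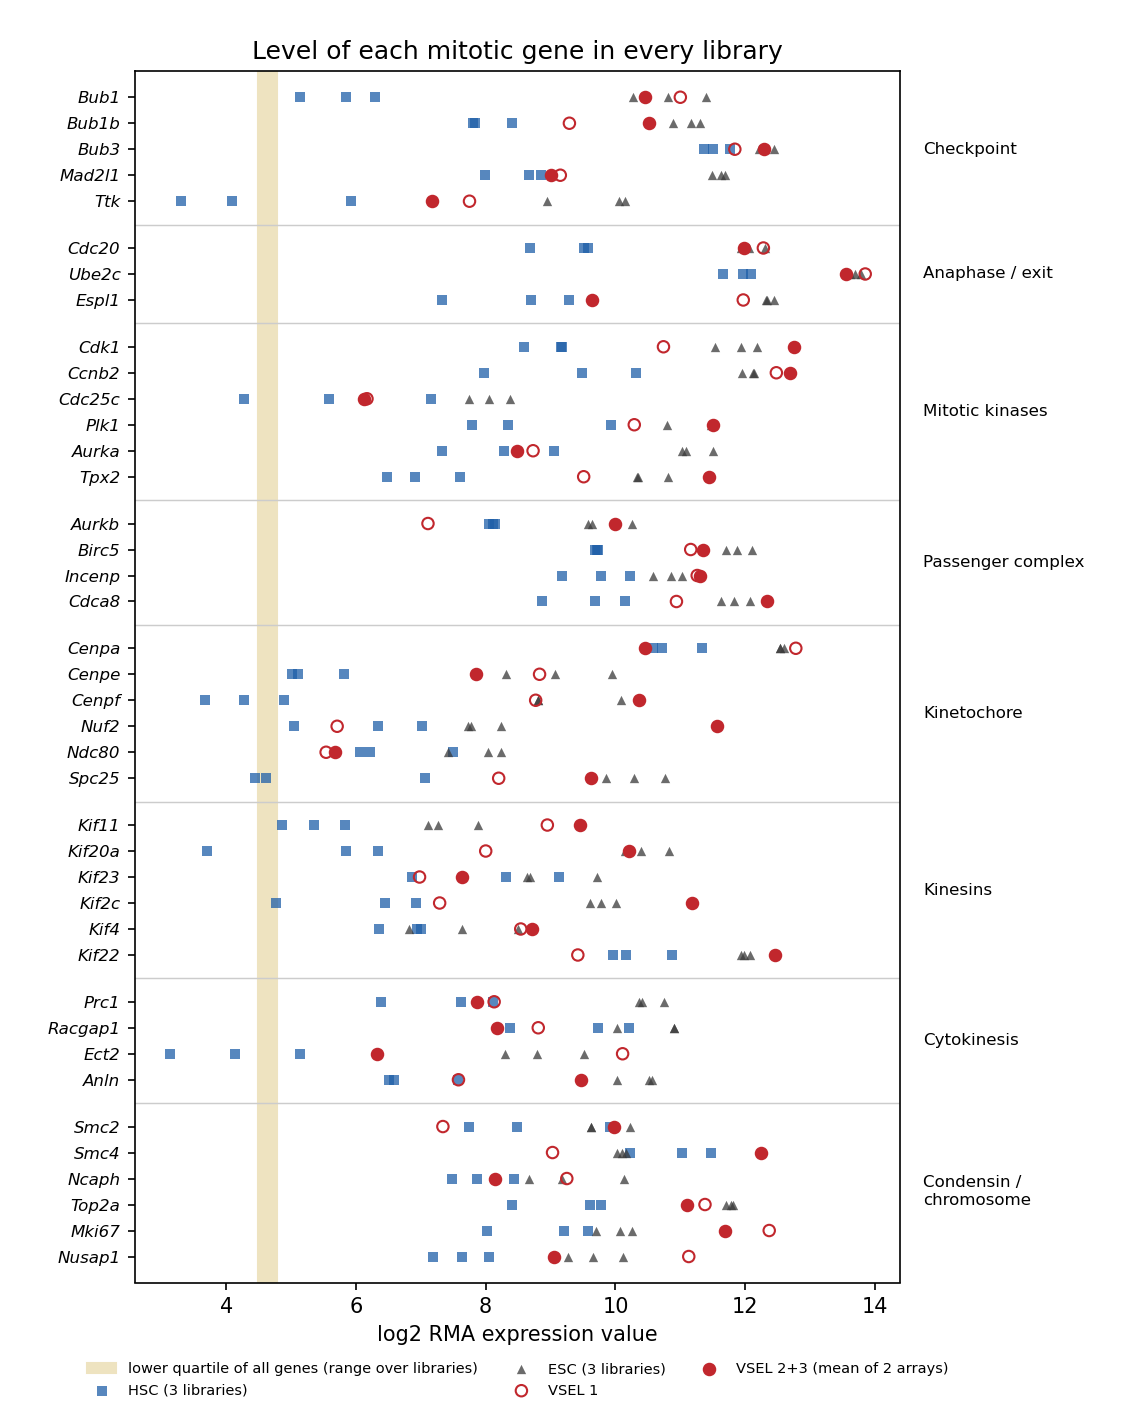
Log2 RMA expression value (x axis) of each of the 40 mitotic genes (y axis, grouped by role) in every library: open red circles VSEL 1, filled red circles VSEL 2+3, blue squares the 3 HSC libraries and black triangles the 3 ESC libraries, with the lower quartile of all genes shaded. HSC lies wholly below ESC for 34 of the 40 genes, and the VSEL libraries lie near ESC for some genes and apart from each other for others.

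The spindle assembly checkpoint was led by Bub1, a kinase that marks centromeric chromatin and brings other checkpoint proteins to the kinetochore. Bub1 lay at 11.00 and 10.45 in VSEL, 5.13, 5.85 and 6.30 in HSC and 11.39, 10.27 and 10.81 in ESC. The VSEL and ESC ranges overlapped and both stood far above HSC, 31.2-fold for VSEL (log2 difference 4.97, SE 0.46, limma adjusted p = 0.00128). Bub1b encodes BubR1, a part of the inhibitor that binds Cdc20. It lay at 9.29 and 10.52 in VSEL, 8.41, 7.84 and 7.80 in HSC and 11.17, 10.89 and 11.30 in ESC, and VSEL stood between the others without overlap. Its difference from HSC was 1.89 (SE 0.40, limma adjusted p = 0.0255), and the call ended without HSC 2 or HSC 3 (adjusted p up to 0.0686).

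Ttk encodes Mps1, the kinase that starts checkpoint signalling. Its values were 7.75 and 7.17 in VSEL, 5.93, 3.30 and 4.09 in HSC and 8.95, 10.05 and 10.14 in ESC, again 3 ranges without overlap. The difference from HSC was 3.02 (SE 0.79, limma adjusted p = 0.0477), and it lost the call without any one library but HSC 1 (adjusted p up to 0.136). Mad2l1 encodes Mad2, which binds Cdc20 directly. It behaved differently, at 9.15 and 9.0 in VSEL, 8.67, 8.85 and 7.99 in HSC and 11.62, 11.49 and 11.69 in ESC. VSEL stood close above HSC (difference 0.57, limma adjusted p = 0.181) and 5.77-fold below ESC (-2.53, SE 0.27, limma adjusted p = 0.00286), a call that each alternative kept. Mad2l1 has no other probe set, so the settings on probe sets could not change its difference. Bub3, the adaptor that docks Bub1 and BubR1, was high everywhere, with means of 12.07 ± 0.31 in VSEL, 11.55 ± 0.2 in HSC and 12.32 ± 0.11 in ESC (SD), and was not called against HSC (limma adjusted p = 0.121). Another bright probe set of Bub3 gave -1.07 for VSEL minus HSC. All 5 checkpoint genes were called lower in HSC than in ESC, from -0.77 for Bub3 to -5.27 for Ttk. The Bub3 call ended without HSC 2, HSC 3 or any ESC library (adjusted p up to 0.102).

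Of the genes that carry the cell into anaphase, Cdc20 and Ube2c were called higher in VSEL than in HSC. Ube2c, the ubiquitin-conjugating enzyme of the APC/C, had the tightest values: 13.85 and 13.55 in VSEL, 11.66, 12.09 and 11.97 in HSC and 13.69, 13.61 and 13.78 in ESC. The ranges of VSEL and ESC overlapped, while HSC lay 3.46-fold lower than VSEL (difference 1.79, SE 0.18, limma adjusted p = 0.00205). Cdc20, the APC/C activator that the checkpoint holds, lay at 12.28 and 11.98 in VSEL, 9.51, 8.68 and 9.57 in HSC and 12.31, 11.93 and 12.06 in ESC (VSEL minus HSC 2.87, SE 0.31, limma adjusted p = 0.00226). Its 2 other bright probe sets differed from each other. One gave 2.24 for VSEL minus HSC, 0.31 for VSEL minus ESC and -1.92 for HSC minus ESC. The other gave 0.42, -2.43 and -2.86, with VSEL called lower than ESC (limma adjusted p = 0.0017) and not called against HSC (adjusted p = 0.211). Espl1, separase, was 11.97 and 9.64 in the VSEL libraries, 7.32, 9.29 and 8.70 in HSC and 12.33, 12.45 and 12.32 in ESC, and with this spread it was not called against HSC (limma adjusted p = 0.0893). All 3 were called lower in HSC than in ESC, Espl1 by the widest margin (-3.93, SE 0.71, limma adjusted p = 0.0124).

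Cdk1, the kinase of mitotic entry, and Ccnb2, cyclin B2, one of its activating partners, were called higher in VSEL than in HSC. Cdk1 lay at 10.74 and 12.75 in VSEL, 9.16, 8.59 and 9.17 in HSC and 11.94, 12.18 and 11.54 in ESC. The VSEL libraries stood on either side of ESC and both above HSC (6.81-fold in the mean, difference 2.77, SE 0.58, limma adjusted p = 0.0255), and the call ended without any one of the HSC libraries (adjusted p up to 0.0649). Ccnb2 had 12.48 and 12.69 in VSEL, 9.49, 10.32 and 7.98 in HSC and 12.13, 12.12 and 11.95 in ESC, so both VSEL values were above every ESC value. It was 10.0-fold higher than in HSC (difference 3.32, SE 0.62, limma adjusted p = 0.018), a call lost without either VSEL library (adjusted p up to 0.0558). Tpx2, which activates Aurora A and nucleates spindle microtubules, lay at 9.51 and 11.44 in VSEL, 6.91, 6.48 and 7.60 in HSC and 10.33, 10.81 and 10.35 in ESC. Its difference from HSC was 3.48 (SE 0.60, limma adjusted p = 0.014), a call lost when only VSEL and HSC were fitted (adjusted p = 0.0621) and with the median over its probe sets (0.88, adjusted p = 0.0775).

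Aurka, the kinase that Tpx2 activates, did not share that pattern. Its values were 8.73 and 8.48 in VSEL, 7.32, 9.06 and 8.28 in HSC and 11.08, 11.02 and 11.50 in ESC. VSEL fell inside the HSC range and 6.03-fold below ESC (difference -2.59, SE 0.48, limma adjusted p = 0.0179), with the call lost without VSEL 2+3 or ESC 3 (adjusted p up to 0.0583). Plk1, the polo kinase, was 10.29 and 11.50 in VSEL, 8.34, 7.79 and 9.93 in HSC and 11.50, 10.79 and 11.47 in ESC. VSEL lay above HSC in every library, without a call (difference 2.20, SE 0.69, limma adjusted p = 0.0746). Cdc25c, the phosphatase that frees Cdk1 of its inhibitory phosphates, was the dimmest of these genes, with means of 6.15 ± 0.024 in VSEL, 5.67 ± 1.4 in HSC and 8.06 ± 0.32 in ESC (SD), and was called in no comparison. Cdk1, Ccnb2, Plk1, Aurka and Tpx2 were called lower in HSC than in ESC, with differences from -2.56 for Plk1 to -3.50 for Tpx2. Plk1 lost that call without HSC 1, HSC 2 or any ESC library (adjusted p up to 0.111) and Ccnb2 without any ESC library (up to 0.0601).

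In the chromosomal passenger complex, which corrects faulty attachments and later guides cytokinesis, 3 of 4 subunits were called higher in VSEL than in HSC. Birc5, survivin, the subunit that binds phosphorylated histone H3, lay at 11.16 and 11.35 in VSEL, 9.69, 9.72 and 9.73 in HSC and 11.87, 11.71 and 12.11 in ESC. The 3 ranges were narrow and apart, with VSEL 2.91-fold above HSC (difference 1.54, SE 0.16, limma adjusted p = 0.00224). Against ESC it was called lower by a small margin (-0.65, SE 0.16, limma adjusted p = 0.044), and leaving out any single library ended that call (adjusted p up to 0.126). Incenp, the scaffold, lay at 11.26 and 11.30 in VSEL, 9.18, 10.23 and 9.78 in HSC and 11.02, 10.58 and 10.86 in ESC, so VSEL was the highest group. Its difference from HSC was 1.55 (SE 0.32, limma adjusted p = 0.0232) and lost the call without VSEL 1, VSEL 2+3 or HSC 3 (up to 0.0644). Cdca8, borealin, was 10.94 and 12.34 in VSEL, 9.68, 8.86 and 10.15 in HSC and 11.62, 11.82 and 12.07 in ESC (difference from HSC 2.08, SE 0.52, limma adjusted p = 0.0411), and this call ended without any one library but VSEL 1 (up to 0.118).

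Aurkb, the kinase of the complex, parted the VSEL libraries instead. It lay at 7.11 and 10.00 in VSEL 1 and VSEL 2+3, 8.14, 8.11 and 8.05 in HSC and 9.58, 10.25 and 9.64 in ESC, so 1 VSEL library was below HSC and the other level with ESC. It was not called against HSC (limma adjusted p = 0.698) or ESC (adjusted p = 0.286). Another bright probe set of Aurkb gave 1.49 for VSEL minus HSC and -0.21 for VSEL minus ESC, against 0.45 and -1.27 here. HSC was below ESC in every library for all 4 subunits, and Birc5, Incenp and Cdca8 were called. The Incenp call ended without any library but HSC 2 (adjusted p up to 0.139), and that of Cdca8 without HSC 1 or any ESC library (up to 0.0661).

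At the kinetochore, Cenpf had the largest difference of the 40 between VSEL and HSC. Cenpf, a large protein of the outer kinetochore, lay at 8.77 and 10.37 in VSEL, 4.28, 4.89 and 3.68 in HSC and 8.81, 8.81 and 10.09 in ESC. HSC values were near or below the lower quartile of all genes, and VSEL was about 39.2-fold higher (difference 5.29, SE 0.65, limma adjusted p = 0.00396). The other probe sets of Cenpf, both dim, gave 0.49 and 0.42, and the median over the probe sets ended the call (0.55, adjusted p = 0.56). Cenpe, the kinetochore motor that carries chromosomes to the spindle equator, lay at 8.83 and 7.85 in VSEL, 5.81, 5.01 and 5.11 in HSC and 9.94, 8.32 and 9.07 in ESC (difference from HSC 3.03, SE 0.55, limma adjusted p = 0.0163), a call lost without VSEL 1 (adjusted p = 0.0579).

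The Ndc80 complex, the kinetochore's grip on microtubule ends, has subunits that did not move together. Spc25 was 8.20 and 9.62 in VSEL, 7.06, 4.45 and 4.61 in HSC and 9.86, 10.77 and 10.28 in ESC, called higher than in HSC (difference 3.54, SE 0.87, limma adjusted p = 0.0405) but not without any one library but HSC 1 (adjusted p up to 0.13). Ndc80 itself was 5.54 and 5.68 in VSEL, 6.06, 7.49 and 6.22 in HSC and 8.04, 8.24 and 7.42 in ESC, so both VSEL values were below every other library. It was the single gene of the 40 whose VSEL values lay wholly below HSC (difference -0.98, SE 0.47, limma adjusted p = 0.193), and it was called lower than in ESC (4.89-fold, limma adjusted p = 0.0244), a call lost without VSEL 1, VSEL 2+3, ESC 1 or ESC 2 (up to 0.0737). Nuf2, the partner that pairs with Ndc80, lay at 5.71 and 11.56 in VSEL, 6.34, 5.05 and 7.02 in HSC and 7.78, 8.23 and 7.73 in ESC. It was within the HSC range in VSEL 1 and above every ESC library in VSEL 2+3, and the gap of 5.84 between the VSEL libraries was the widest of the 40. Cenpa, the histone H3 variant that marks centromeres, showed the reverse split, at 12.78 and 10.45 in VSEL against 11.33, 10.72 and 10.58 in HSC and 12.54, 12.60 and 12.53 in ESC. Neither was called in any comparison. Cenpe, Cenpf and Spc25 were called lower in HSC than in ESC, with differences of -3.80, -4.96 and -4.93.

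Among the kinesins, Kif11, Kif20a and Kif4 were called higher in VSEL than in HSC. Kif11 is Eg5, the motor that pushes spindle poles apart. It lay at 8.95 and 9.45 in VSEL, 5.83, 4.86 and 5.36 in HSC and 7.26, 7.11 and 7.88 in ESC, with VSEL above both. The difference was 3.85 from HSC (SE 0.37, limma adjusted p = 0.00149) and 1.79 from ESC (SE 0.37, limma adjusted p = 0.0238). The call against ESC ended without VSEL 2+3, ESC 1 or ESC 2 (adjusted p up to 0.0802), and another bright probe set of Kif11 gave 2.52 and 0.10. Kif4, a chromokinesin of the central spindle, lay at 8.54 and 8.72 in VSEL, 6.94, 7.0 and 6.36 in HSC and 7.64, 8.49 and 6.81 in ESC. Its difference from HSC was 1.86 (SE 0.48, limma adjusted p = 0.0461) and ended without any one library but ESC 2 or ESC 3 (up to 0.121). Kif20a, which delivers the passenger complex to the central spindle, was 8.0 and 10.21 in VSEL, 3.71, 6.34 and 5.85 in HSC and 10.82, 10.40 and 10.14 in ESC (difference from HSC 3.80, SE 0.93, limma adjusted p = 0.0405). Leaving out VSEL 2+3, HSC 1, HSC 3 or any ESC library ended that call (up to 0.126).

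The other kinesins were called in no comparison. Kif2c (MCAK), which takes tubulin off microtubule ends, and Kif22, a chromokinesin that pushes chromosome arms, were both low in VSEL 1 and high in VSEL 2+3: Kif2c at 7.29 and 11.18, Kif22 at 9.42 and 12.46. In ESC they lay at 9.77, 9.60 and 10.01 and at 12.07, 11.94 and 11.98, below VSEL 2+3 in each library. For Kif2c the 2 other bright probe sets gave 0.76 and 0.54 for VSEL minus HSC, against 3.19 here, and -2.09 and 0.05 for VSEL minus ESC, against -0.56. Kif23, the motor of centralspindlin, was 6.98 and 7.63 in VSEL, 6.87, 8.31 and 9.13 in HSC and 8.64, 9.71 and 8.68 in ESC, with VSEL inside the HSC range (limma adjusted p = 0.441). Of the 6 kinesins, Kif11 and Kif20a were called lower in HSC than in ESC (-2.06 and -5.15).

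Cytokinesis was the role with no gene called between VSEL and HSC. Racgap1, the partner of Kif23 in centralspindlin, lay at 8.81 and 8.18 in VSEL, 9.73, 10.21 and 8.38 in HSC and 10.90, 10.90 and 10.02 in ESC. VSEL overlapped the low end of HSC and lay below ESC, without a call (VSEL minus ESC -2.11, limma adjusted p = 0.0555). Another bright probe set of Racgap1 gave 0.34 for VSEL minus HSC, against -0.95 here, and -2.53 for HSC minus ESC, against -1.17. Prc1, which bundles the microtubules of the central spindle, lay at 8.13 and 7.86 in VSEL, 7.62, 8.11 and 6.38 in HSC and 10.75, 10.36 and 10.41 in ESC. It was called 5.7-fold lower in VSEL than in ESC (difference -2.51, SE 0.49, limma adjusted p = 0.0205), and lost the call without either VSEL library or any ESC library (adjusted p up to 0.0652). Ect2, the exchange factor that switches on RhoA at the cleavage furrow, was 10.11 and 6.33 in VSEL, 3.13, 5.14 and 4.14 in HSC and 8.79, 9.51 and 8.30 in ESC. Its large mean difference from HSC (4.08, SE 1.1) missed the threshold (limma adjusted p = 0.0567). Anln, the furrow scaffold anillin, was 7.58 and 9.47 in VSEL, 6.59, 7.58 and 6.51 in HSC and 10.51, 10.56 and 10.03 in ESC (VSEL minus HSC, limma adjusted p = 0.11). Prc1, Ect2 and Anln were called lower in HSC than in ESC, with differences of -3.14, -4.73 and -3.47, and Ect2 lost the call without HSC 1, HSC 3 or any ESC library (up to 0.0844).

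Of the chromosome structure genes, Mki67, Top2a and Nusap1 were called higher in VSEL than in HSC and the condensin subunits were not. Mki67 encodes Ki-67, the surface coat of mitotic chromosomes and the common marker of cycling cells. It lay at 12.37 and 11.69 in VSEL, 8.02, 9.57 and 9.21 in HSC and 9.70, 10.26 and 10.07 in ESC, so each VSEL library exceeded every ESC library. The difference was 3.09 from HSC (SE 0.49, limma adjusted p = 0.0103) and 2.02 from ESC (SE 0.49, limma adjusted p = 0.0382). Against ESC the call ended without any one library but HSC 1 or HSC 2 (adjusted p up to 0.123). Top2a, the topoisomerase that untangles sister chromatids, lay at 11.38 and 11.11 in VSEL, 8.41, 9.77 and 9.60 in HSC and 11.81, 11.70 and 11.78 in ESC. VSEL was 3.95-fold above HSC (difference 1.98, SE 0.40, limma adjusted p = 0.0234), a call lost without either VSEL library (up to 0.0748). Nusap1, a microtubule binder around chromosomes, was 11.13 and 9.06 in VSEL, 7.19, 7.64 and 8.05 in HSC and 9.66, 10.12 and 9.27 in ESC (difference from HSC 2.47, SE 0.62, limma adjusted p = 0.0433), and ended without any one library but VSEL 2+3 (up to 0.113).

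Condensin folds chromosomes for mitosis around a pair of SMC ATPases. Smc2 lay at 7.34 and 9.97 in VSEL, 8.48, 9.91 and 7.75 in HSC and 9.63, 9.62 and 10.22 in ESC, and Smc4 at 9.03 and 12.24, 10.23, 11.03 and 11.47 and 10.16, 10.02 and 10.10. In both, VSEL 1 was the lowest of all 8 libraries, and for Smc4 VSEL 2+3 was the highest. Ncaph, the kleisin of condensin I, was 9.25 and 8.14 in VSEL, 7.87, 7.48 and 8.44 in HSC and 9.17, 10.13 and 8.66 in ESC. None of the 3 was called in any comparison, and the other bright probe sets of Smc4 gave 1.57 and -1.25 for VSEL minus HSC, against -0.27 here. Top2a was the single gene of this role called lower in HSC than in ESC (-2.50, SE 0.36, limma adjusted p = 0.00484).

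**Figure D3:**
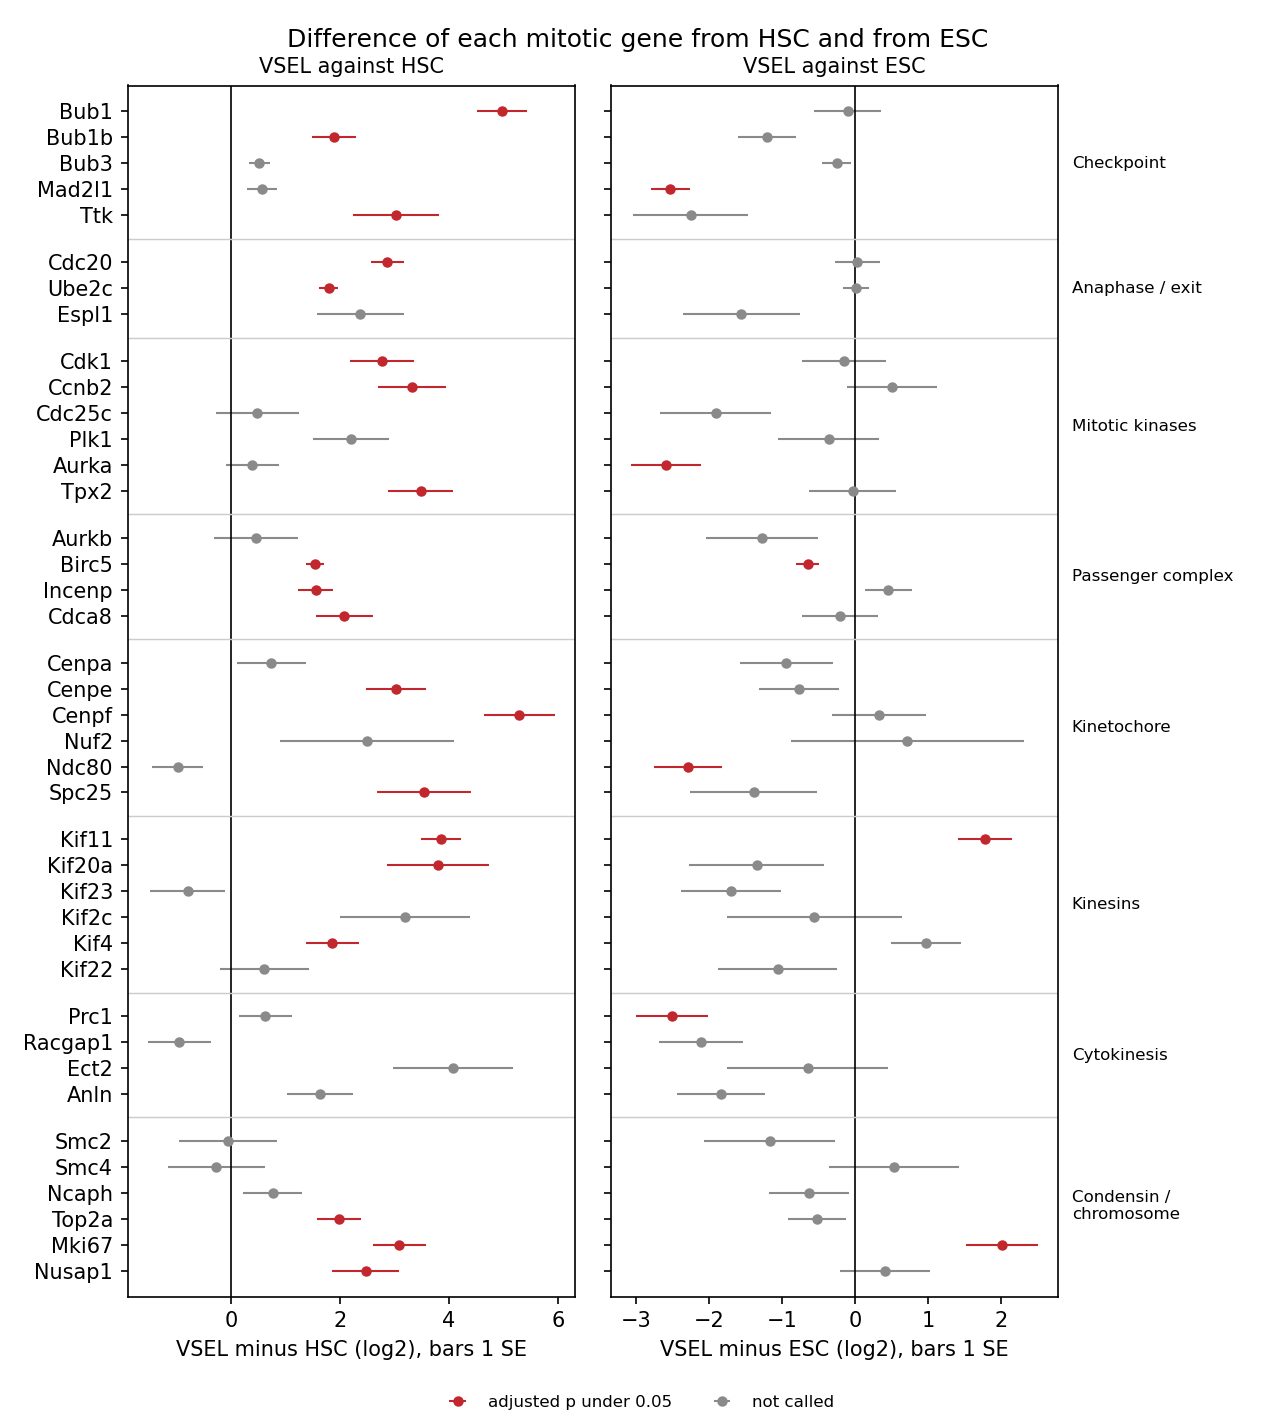
Log2 difference of VSEL from HSC (left) and from ESC (right) for each of the 40 mitotic genes, with bars of 1 SE from the limma fit; red points passed an adjusted p of 0.05 over all genes and grey points did not. On the left 20 genes are called, all higher in VSEL; on the right 2 are called higher and 5 lower.

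The VSEL libraries differed from each other more than those of any other group. The median absolute difference over the 40 genes was 1.04 between VSEL 1 and VSEL 2+3, 0.717 to 0.809 between HSC libraries and 0.266 to 0.434 between ESC libraries. More than 4-fold differences occurred at 12 of 40 genes between the VSEL libraries, at 3 to 5 between HSC libraries and at 0 between ESC libraries. Over all genes 14.2% differed as much between the VSEL libraries, 4.4% to 7.2% between HSC and 3.9% to 4.5% between ESC libraries. The split had no single direction, with 17 genes higher in VSEL 1 and 23 in VSEL 2+3. Nuf2, Kif2c, Smc4, Kif22, Aurkb, Smc2, Kif20a and Cdk1 were over 4-fold higher in VSEL 2+3, and Ect2, Espl1, Cenpa and Nusap1 over 4-fold higher in VSEL 1. Genes whose products form a single complex could split by unlike amounts. Nuf2 was higher in VSEL 2+3 by 5.84 and its partner Ndc80 by 0.13, and Aurkb by 2.89 and Incenp by 0.04. Each library holds RNA of only 20 cells, and the part of cell sampling and amplification in this spread was not tested.

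How far VSEL lay below ESC was uneven across the 40 genes, and the lowest of them were set beside genes of another kind. The offset of VSEL 1 from the ESC mean had a median of -0.98 over the 40 and ran from -2.79 to 2.36, and that of VSEL 2+3 a median of -0.31, from -2.73 to 3.65. A reference set was chosen, after these offsets were seen but without VSEL values, as genes outside the 40 whose lowest ESC value exceeded the highest HSC value by over 3 and whose ESC mean was over 10. Its 130 genes had a median offset of -2.58 in VSEL 1 and -2.58 in VSEL 2+3, with percentiles 5 to 95 at -3.03 to -0.66 and at -3.04 to -0.96. The 15 pluripotency markers had medians of -2.75 and -2.64. Mad2l1 (-2.45 and -2.60), Aurka (-2.47 and -2.72), Prc1 (-2.38 and -2.64) and Ndc80 (-2.36 and -2.22), 4 of the 5 genes called lower in VSEL than in ESC, sat near that level in both libraries. The other, Birc5, lay higher, at -0.74 and -0.55. These genes were picked by their call below ESC, and the reference set by its high ESC values. Both choices by themselves lower offsets from ESC, so the nearness only describes place.

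In all, 8 of the 40 genes lay inside the range of the reference set in both VSEL libraries: Mad2l1, Ttk, Cdc25c, Aurka, Ndc80, Kif23, Prc1 and Racgap1. Another 15 lay inside it in VSEL 1 alone and 5 in VSEL 2+3 alone, and 12 were above it in both. Of the 20 genes called higher in VSEL than in HSC, 11 were above it in both libraries: Bub1, Cdc20, Ube2c, Ccnb2, Incenp, Cenpf, Kif11, Kif4, Top2a, Mki67 and Nusap1. Ttk was inside it in both, 7 were inside it in VSEL 1 alone and Cenpe in VSEL 2+3 alone. No gene of the 40 lay below it in either library. The reference set was chosen for high ESC values, a choice that by itself lowers offsets from ESC. The 20 genes were called for high VSEL values against HSC, a choice that by itself raises theirs. These counts therefore only describe place. Cdc20 was placed by its brightest probe set, and its other bright probe sets gave -2.43 and 0.31 for VSEL minus ESC. Of all 18193 genes, 4716 lay over 1 below the ESC mean in VSEL 1 and 4694 in VSEL 2+3, and of the 40 genes 19 and 13. Whether the VSEL libraries held any ESC RNA was not tested.

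**Figure D4:**
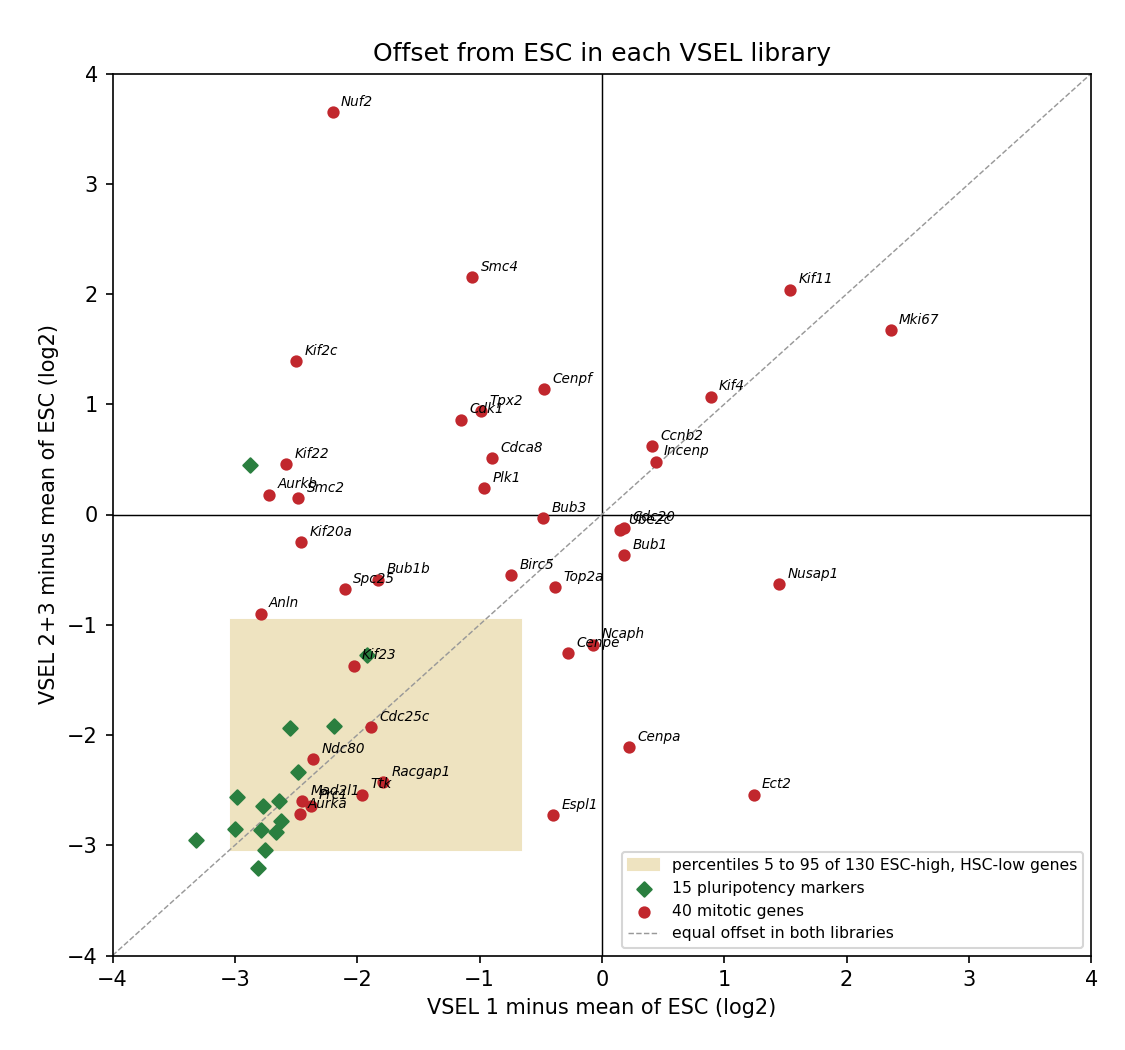
Offset from the mean of the 3 ESC libraries (log2) in VSEL 1 (x axis) and in VSEL 2+3 (y axis) for the 40 mitotic genes (red circles) and 15 pluripotency markers (green diamonds); the shaded box spans percentiles 5 to 95 of 130 genes high in ESC and low in HSC, and the dashed line marks equal offsets. Mad2l1, Aurka, Prc1 and Ndc80 sit among the pluripotency markers, Kif11 and Mki67 lie above ESC in both libraries, and Nuf2 is farthest from the dashed line.

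A wider list of 127 other measured genes of mitosis was read from the same fit. Against HSC, 17 were called higher in VSEL, 12 lower and 98 not, with a median difference of 0.65. These are 13.4% and 9.45% of the list, where 8.01% of all genes were called higher and 9.18% lower, so the share called lower was near that of all genes. The 3 genes called higher by the widest margin were Cdca2, a chromatin-bound phosphatase adaptor (4.02, SE 0.43, limma adjusted p = 0.00227), Cenpp of the inner kinetochore (3.97, SE 0.53, adjusted p = 0.00544) and Cep55, which organises abscission (3.64, SE 0.52, adjusted p = 0.00739). Cep55 was close in both VSEL libraries, at 11.26 and 11.26, with 7.18, 8.38 and 7.31 in HSC and 9.81, 8.43 and 9.62 in ESC. The median over probe sets ended all 3 calls, with Cdca2 at 0.08 (limma adjusted p = 0.928), Cep55 at 1.31 (0.265) and Cenpp at 3.50 (0.0887). Those called lower by the widest margin were Esco1, a cohesin acetyltransferase (-4.71, SE 0.93, limma adjusted p = 0.0214), Chmp4b of the abscission machinery (-3.05, adjusted p = 0.0363) and Haus3 of the augmin complex (-2.77, adjusted p = 0.0194). Single libraries ended the 3 calls of lower genes: VSEL 2+3 or any HSC library for Esco1 (adjusted p up to 0.0713), the same or ESC 3 for Chmp4b (up to 0.116), and VSEL 1, HSC 2 or HSC 3 for Haus3 (up to 0.0676).

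Against ESC the wider list gave 6 genes higher, 24 lower and 97 not called, with a median of -0.85. These are 4.72% and 18.9% of the list, where 6.38% and 10.5% of all genes were called. Of the 9096 genes above the median level, fitted alone, 537 were called higher and 1877 lower. The genes of the list called higher by the widest margin were Cdc25b (2.56), a phosphatase that activates Cdk1, Cep55 (1.98) and Cdca2 (1.68), with limma adjusted p of 0.0388, 0.049 and 0.0452. All 3 were lost in several fits that left out 1 library. For Cdc25b these were all but the one without VSEL 1 (adjusted p up to 0.129), for Cep55 all but the one without HSC 2 (up to 0.118), and for Cdca2 all but those without VSEL 2+3 or HSC 1 (up to 0.141). The genes called lower by the widest margin were Haus1 (-3.03) and Haus3 (-3.03) of augmin, and the cohesin subunit Rad21 (-2.75), with limma adjusted p of 0.0277, 0.0146 and 0.000908. Rad21 kept its call without any one library. Haus1 lost it without either VSEL library, ESC 1 or ESC 2 (up to 0.0865) and Haus3 without VSEL 1 (adjusted p = 0.0515). In HSC against ESC 2 genes were higher, Esco1 (4.18, limma adjusted p = 0.0174) and Rhoa (1.53, adjusted p = 0.00425), the GTPase of the furrow, and 38 were lower (1.57% and 29.9%, against 6.99% and 9.93% of all genes). Zwilch (-5.42) and Kntc1 (-4.41), which belong to the RZZ checkpoint complex, and Esco2 (-4.18), the S phase cohesin acetyltransferase, led these. Esco1 lost its call without HSC 1, HSC 2 or ESC 2 (up to 0.0624) and Esco2 without HSC 2, HSC 3 or any ESC library (up to 0.128).

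The 40 genes were also set beside neighbouring lists of the cell cycle. Of 37 DNA replication genes, 13 were called higher in VSEL than in HSC and 0 lower, with a median difference of 1.24, against 20 of 40 and 1.94 for the mitotic genes. That is 35.1% of the replication genes, where 8.01% of all genes were called higher and 9.18% lower. Replication genes had a median of 11.26 in VSEL 1 and 10.24 in VSEL 2+3, while the mitotic median was higher in VSEL 2+3. Gene by gene this contrast was small. Of the replication genes 19 were higher in VSEL 1 and 18 in VSEL 2+3, and of the mitotic genes 17 and 23. In HSC against ESC 17 of the 37 were lower (45.9%, against 9.93% of all genes) and 0 higher. Of 10 inhibitors of cyclin-dependent kinases, 0 were called higher and 2 lower in VSEL than in HSC (8.01% and 9.18% of all genes), and 2 higher and 0 lower in HSC than in ESC (6.99% and 9.93% of all genes). Whether the lists differ from each other was not tested.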

How the data were processed

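Each library came from 20 sorted cells and was hybridised to an Affymetrix mouse array. The deposited values are log2 expression per probe set, for which the authors used RMA with the Partek 6.5 software (submitters' processing notes). Which arrays were normalized together is not given here. They were used as deposited. Of 45101 probe sets, 64 controls were left out and 34945 others had 1 gene; symbols of 34741 were updated through RefSeq (GRCm38.p6). For each of 18193 genes the probe set of highest mean over the 9 arrays was taken. VSEL arrays 2 and 3 were averaged, as they were near identical, leaving 8 libraries.

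The 3 cell types were compared in a single limma 3.58.1 fit (R 4.3.3; lmFit, eBayes, two-sided; 5 residual degrees of freedom, prior 1.37), tested on simulated data beforehand. Those data gave every cell type the spread of HSC and ESC, so they could not test calls under the wider spread of VSEL. Benjamini-Hochberg adjustment ran over all genes, with calls at 0.05. The fit assumes an equal spread in all cell types. The number of arrays limits the precision. All 40 genes are named, those called against HSC with every library's value. Of the wider list, the 3 called genes with the widest difference per direction and comparison are named. Replicate numbers did not pair arrays: deviations of same-numbered arrays correlated at -0.089 to 0.155. The genes, lists and tests were chosen with earlier results of these data known.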

Additional observations from a re-analysis of the deposited data

How the results depend on the processing

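In 21 alternative settings, the call against HSC held throughout for 3 of 20 genes, that against ESC for Mad2l1 of 7, and that of HSC against ESC for 16 of 25. Genes called higher in VSEL than in HSC numbered 8 when only those groups were fitted, 10 with array weights and 12 to 17 when 1 library was left out. Genes called lower were 1 with the replicate block (Racgap1, 9 arrays kept separate) and 0 to 1 when 1 library was left out (Smc4, without VSEL 2+3). With the replicate block 21 were called higher. The median difference was 1.02 with the median over all probe sets of a gene. Against ESC, genes called higher numbered 1 after another quantile normalization, 1 with the median over probe sets, 0 with array weights and 0 to 3 when 1 library was left out. Genes called lower numbered 2 after cyclic loess, 2 with array weights and 2 to 5 when 1 library was left out. Cyclic loess turned the median difference from ESC to 0.12 and that of Birc5 to 0.03. The median over probe sets turned Kif11 to -0.21, Cdca2 to -1.12 and Cdc20 to -2.1, and Cdc20 stood at -2.43 without probe sets ending in _s_at or _x_at. The HSC minus ESC median was -2.2 after cyclic loess and -2.04 with the median over probe sets. The cause of these shifts was not tested. Cyclic loess moved the median of all genes in VSEL minus HSC from 0.22 to 0.081, and median centring that of VSEL minus ESC from 0.11 to 0.28. The 27 genes with several probe sets rest on 1 of them each. For the 13 genes with 1 probe set, the settings on probe sets could not change the difference. Among 19 other bright probe sets, 3, 4 and 2 had the opposite sign against HSC, against ESC and for HSC against ESC.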
